A study of Homo sapiens with 2 samples.

Results

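Receptor tyrosine kinases are single-pass membrane proteins that bind a ligand outside the cell, pair up and phosphorylate each other on tyrosines, which recruits adaptors such as GRB2, SHC1 and the IRS proteins and switches on the RAS and PI3K pathways. They are made in the endoplasmic reticulum (ER), the compartment where FKBP9, a member of the FK506-binding protein family, resides. EGFR and PDGFRA are the receptors best known for amplification in glioblastoma (GBM), and MET and AXL are known for roles in invasion and drug resistance.

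The 10 receptor tyrosine kinases described here were chosen by name as receptors with known roles in glioma, and all 10 were found among the 58735 genes of the deposited table. They were EGFR and ERBB2 of the ErbB family, PDGFRA, PDGFRB and KIT of the class III receptors, MET (the receptor of HGF), AXL (a receptor of GAS6), IGF1R and INSR of the insulin receptor family, and DDR2, a receptor of fibrillar collagen. Together with 48 further genes they make up the 58 receptor tyrosine kinases considered. RNA was sequenced from SF-539 cells, a human GBM line grown in DMEM with serum, after lentiviral transduction and puromycin selection of stable lines with lentiviruses for pGIPZ-CTRL (the shControl line) or FKBP9-shRNA (the shFKBP9 line). Each condition had 1 library, so no difference between shFKBP9 and shControl has a replicate check, and no test between the conditions was made. The FKBP9-shRNA sequence used for this library is not given in the sources used here.

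Values are FPKM, fragments per kilobase of gene and scaled to the size of each library. The shControl library held 18116873 fragments and the shFKBP9 library 17158514, recovered from the FPKM and the gene lengths. Differences are log2 ratios, shFKBP9 over shControl, of FPKM after adding 0.1. Each is given with a 95% counting interval, an exact Clopper-Pearson interval of the fragments themselves, made without the 0.1. These intervals cover counting error only and say nothing of the spread between cultures. FKBP9 itself had 49.8 FPKM in shControl, from 4659 fragments, and 4.68 FPKM in shFKBP9, from 415 fragments, a log2 ratio of -3.38 (95% counting interval -3.56 to -3.27).

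The labelled cell type was checked against its markers. VIM and CD44, mesenchymal genes that gliomas often express, were abundant, VIM at 277 and 295 FPKM and CD44 at 48.6 and 55.6 FPKM (shControl first). GFAP, the astrocyte filament protein, was close to absent, at 0.196 and 0.139 FPKM. Of the 8 glioma and neural stem cell markers, 4 reached 1 FPKM in either library, and GFAP, S100B, OLIG2 and SOX2 did not. Of the 6 markers of blood and mast cells, PTPRC, AIF1, TPSAB1 and CPA3 had 0 fragments in both libraries, HBB had 2 in shControl and 0 in shFKBP9, and CD14, a monocyte marker, had 13 and 24. The 4 endothelial markers summed to 0.139 and 0.250 FPKM. The markers of oligodendrocyte progenitors summed to 19.4 and 18.5 FPKM, nearly all of it CSPG4, those of melanocytes to 0.498 and 0.464 FPKM, and those of epithelial cells to 0.368 and 1.18 FPKM. Behind the last sums stood few fragments: KRT14 had 1 in shControl and 24 in shFKBP9, PMEL had 22 and 4, and MLANA had 10 and 21. CHI3L1, a mesenchymal glioma marker, was at 9.89 FPKM in the shControl library and 19.3 FPKM in the shFKBP9 library.

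Sequence decides whether fragments of related receptors can be told apart, so the coding sequences of the 10 receptors were compared in GENCODE release 44. Over the 45 pairs, the longest identical run had a median of 13 bases and at most 23 bases. The 3 pairs with runs of 23 bases were the closest relatives, and these runs are shown because they are the nearest the receptors come to sharing sequence.
EGFR and ERBB2: gatgtctacatgatcatggtcaa
IGF1R and INSR: ttccccaacctcacggtcatccg
PDGFRA and PDGFRB: aagatctgtgactttggcctggc
The first run lies at coding bases 2824 to 2846 of EGFR and 2848 to 2870 of ERBB2, the second at 298 to 320 of IGF1R and 307 to 329 of INSR, and the third at 2497 to 2519 of PDGFRA and 2521 to 2543 of PDGFRB. No window of 100 bases in the canonical transcripts of PDGFRB, KIT, MET, AXL, IGF1R, INSR or DDR2 was found in a transcript of another gene.

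Of the others, EGFR shared 0.897% of its windows of 100 bases with its antisense gene EGFR-AS1 and ERBB2 shared 1.44% with MIEN1, a gene on the opposite strand. PDGFRA shared 22.9% of its windows, 1437 of 6279, with the overlapping gene AC058822.1 on the same strand, on which 0 fragments were counted in both libraries. How fragments lying on both genes were assigned is not given in the sources used here, so the level of PDGFRA is uncertain to that extent.

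The promoters of 4 receptors are shown because these genes lie at the ends of the range: AXL had the highest level, KIT had no fragments, and DDR2 and PDGFRA had the largest differences in each direction. Each sequence is the 250 bases before a RefSeq gene start (build GRCh38.p14), read 5′ to 3′ on the strand of the gene, and capitals mark a match on either strand to the motif GGGCGG, the motif CCAAT or the motif TATAAA.
AXL, chr19:41218973-41219222, plus strand: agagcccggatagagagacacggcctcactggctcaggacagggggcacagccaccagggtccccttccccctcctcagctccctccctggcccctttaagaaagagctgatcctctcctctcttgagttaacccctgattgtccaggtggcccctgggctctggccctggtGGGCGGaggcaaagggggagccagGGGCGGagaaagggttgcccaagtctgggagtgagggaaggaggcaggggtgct
KIT, chr4:54657707-54657956, plus strand: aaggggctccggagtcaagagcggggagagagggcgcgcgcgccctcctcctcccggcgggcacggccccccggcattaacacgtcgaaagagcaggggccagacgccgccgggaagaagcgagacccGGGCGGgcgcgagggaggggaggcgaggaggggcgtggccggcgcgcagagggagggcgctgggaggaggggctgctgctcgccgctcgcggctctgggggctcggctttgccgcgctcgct
DDR2, chr1:162630613-162630862, plus strand: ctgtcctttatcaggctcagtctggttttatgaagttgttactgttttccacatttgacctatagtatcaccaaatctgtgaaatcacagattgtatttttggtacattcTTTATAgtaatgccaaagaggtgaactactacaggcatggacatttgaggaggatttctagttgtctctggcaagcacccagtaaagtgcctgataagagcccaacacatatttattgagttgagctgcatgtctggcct
PDGFRA, chr4:54229043-54229292, plus strand: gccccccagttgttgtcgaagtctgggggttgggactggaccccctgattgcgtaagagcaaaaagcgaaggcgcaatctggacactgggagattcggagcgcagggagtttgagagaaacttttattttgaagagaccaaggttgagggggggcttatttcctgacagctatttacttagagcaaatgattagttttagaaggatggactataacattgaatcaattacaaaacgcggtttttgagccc

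The KIT promoter held 34 CpG dinucleotides and that of AXL held 4. Over all 35116 promoters of the same length the median was 11 CpG, and 93.2% of promoters held fewer than KIT and 29.3% fewer than AXL. The promoter of PDGFRA held 8 CpG and that of DDR2 held 0. DDR2 has 3 annotated starts and AXL and PDGFRA have 2 each, and the start nearest to the deposited gene start was used. It lay 510 bases from the deposited start for DDR2, 196 for PDGFRA, 39 for KIT and 20 for AXL. For PDGFRA, KIT and AXL the start used lies inside the deposited gene, so that many of the last bases shown belong to it, 196 of 250 for PDGFRA. GGGCGG was found in 42.6% of all promoters, CCAAT in 32.0% and TATAAA in 10.7%. AXL held 2 matches to GGGCGG, KIT held 1 match to GGGCGG, DDR2 held 1 match to TATAAA, and PDGFRA held no match to these letters.

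The 10 receptors fell into a wide range of levels that was nearly the same in both libraries. By FPKM, AXL was the most abundant of all 58 receptor tyrosine kinases, and MET and PDGFRB stood at ranks 3 and 4. EGFR and DDR2 lay in the middle, IGF1R, INSR, ERBB2 and PDGFRA were low, and KIT was not detected. In fragments FGFR1 exceeded AXL, with 9550 and 8937 against 5637 and 5465, over deposited gene lengths of 13842 and 5154 bases. Levels compared between genes therefore depend on the gene length used, which the counting intervals do not cover. The 10 receptors held 48.4% of the summed FPKM of all receptor tyrosine kinases in shControl and 49.2% in shFKBP9. AXL alone made up 41.9% and 41.2% of the FPKM of the 10.

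**Figure D1:**
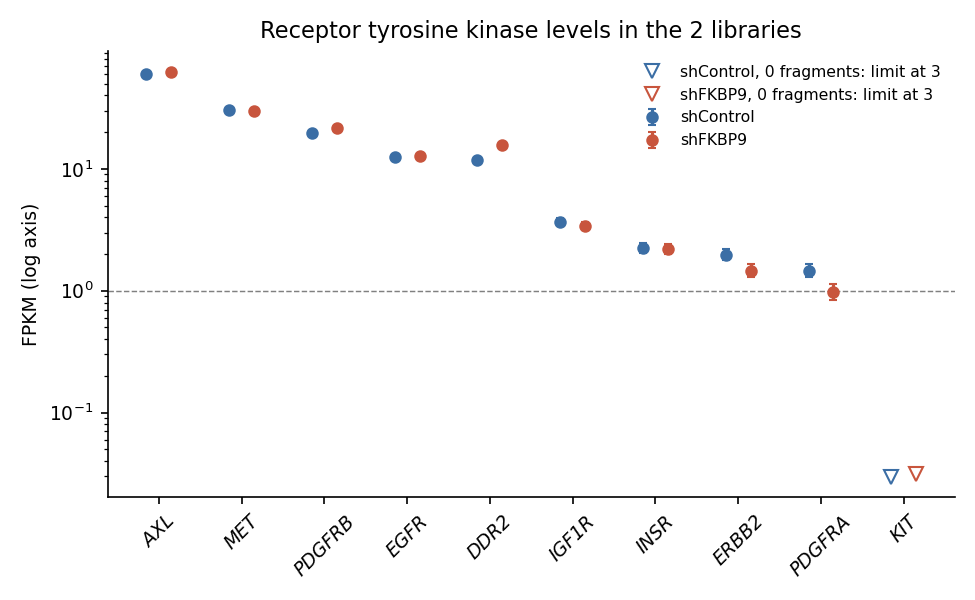
FPKM (log axis) of the 10 receptors in the shControl and shFKBP9 libraries, with exact 95% Poisson intervals of the fragments as bars, the dashed line at 1 FPKM, and open triangles at the level of 3 fragments for a gene with 0. AXL lies at 60.4 and 61.8 FPKM, and PDGFRA lies at 1.46 and 0.976 FPKM.

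AXL is a receptor of the TAM family that binds GAS6 and is linked to invasion and survival. It lies on chromosome 19 from 41219203 to 41261766 of hg38 and had 60.4 FPKM in shControl, from 5637 fragments, and 61.8 FPKM in shFKBP9, from 5465 fragments. No difference was detectable at this depth, with a log2 ratio of 0.03 (95% counting interval -0.02 to 0.09). Its level exceeded that of MET, the next of the 10, 1.99-fold in shControl and 2.06-fold in shFKBP9.

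MET, the receptor of hepatocyte growth factor, lies on chromosome 7 from 116672390 to 116798386. It had 30.3 FPKM in shControl, from 3868 fragments, and 30.1 FPKM in shFKBP9, from 3632 fragments, a log2 ratio of -0.01 (95% counting interval -0.08 to 0.05) whose sign turned with the scaling of the libraries. MET and AXL thus lay at nearly equal levels in the cells with and without FKBP9 depletion, within counting error.

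Of the PDGF receptors, PDGFRB greatly outweighed PDGFRA. PDGFRB, which binds PDGF-BB and is typical of mural cells and fibroblasts, lies on chromosome 5 from 150113837 to 150155872. It had 19.5 FPKM in shControl, from 2524 fragments, and 21.6 FPKM in shFKBP9, from 2644 fragments, a log2 ratio of 0.14 (95% counting interval 0.07 to 0.22). PDGFRA, the receptor of oligodendrocyte progenitors, lies on chromosome 4 from 54229097 to 54298247 and had 1.46 FPKM in shControl, from 257 fragments, and 0.976 FPKM in shFKBP9, from 163 fragments.

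The level of PDGFRA in shFKBP9 was 66.9% of that in shControl, with a log2 ratio of -0.54 (95% counting interval -0.87 to -0.29). With 0.1 added to FPKM, this was the largest difference among the 10 receptors. With 1 in place of 0.1 added to FPKM the log2 ratio of PDGFRA was -0.32, since that addition shrinks the ratios of low genes. The largest difference was then that of DDR2, at 0.37. PDGFRB and PDGFRA therefore lay on opposite sides of 0. The FPKM of PDGFRB was 13.4 times that of PDGFRA in shControl (95% counting interval 11.8 to 15.3) and 22.1 times in shFKBP9 (18.9 to 26.1). This ratio within a library does not depend on how the libraries were scaled. It does depend on the deposited gene lengths, and it rests on a PDGFRA level that is uncertain because of the overlapping gene AC058822.1.

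KIT, the stem cell factor receptor of mast cells, melanocytes and germ cells, is the gene to the right of PDGFRA on chromosome 4, from 54657918 to 54740715. It had 0 fragments in both libraries, and a limit of 3 fragments corresponds to 0.0298 FPKM for shControl and 0.0314 FPKM for shFKBP9. Its ligand KITLG was present, at 3.56 FPKM in shControl and 3.87 FPKM in shFKBP9.

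EGFR, the receptor of EGF and TGF-alpha, lies on chromosome 7 from 55019021 to 55211628. It had 12.6 FPKM in shControl, from 2847 fragments, and 12.7 FPKM in shFKBP9, from 2731 fragments, with a log2 ratio of 0.02 (95% counting interval -0.06 to 0.09) that became -0.00 when the values were rescaled to TPM. At 12.6 FPKM, EGFR stood above 66.6% of the protein-coding genes that reached 1 FPKM in either library, and it held rank 10 of the 58 receptors in both libraries. The deposited values are per gene and do not separate shortened or truncated EGFR transcripts.

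ERBB2, the ErbB receptor without a ligand of its own, lies on chromosome 17 from 39687914 to 39730426. It had 1.97 FPKM in shControl, from 368 fragments, and 1.46 FPKM in shFKBP9, from 258 fragments, 73.9% of the shControl level. The log2 ratio was -0.41 (95% counting interval -0.67 to -0.20), or -0.27 with 1 added to FPKM. EGFR stood above ERBB2 6.38-fold in shControl (95% counting interval 5.72 to 7.13) and 8.73-fold in shFKBP9 (7.68 to 9.95). These ratios use the deposited gene lengths, 12521 bases for EGFR and 10321 for ERBB2. The canonical transcripts are 9905 and 4557 bases long, and on those lengths ERBB2 would stand nearer to EGFR. Ratios with other lengths were not computed. ERBB2 overlaps MIEN1 and PGAP3 on the opposite strand, and whether fragments were counted by strand is not given. MIEN1 had 429 and 340 fragments (log2 ratio -0.26, 95% counting interval -0.47 to -0.05) and PGAP3 had 220 and 197 (-0.08, -0.37 to 0.20). Their part in the value of ERBB2 was not tested.

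IGF1R and INSR, which share the IRS adaptors and control growth and glucose uptake, were low and differed little. IGF1R (chromosome 15, 98648539 to 98964530) had 3.68 FPKM in shControl, from 930 fragments, and 3.40 FPKM in shFKBP9, from 813 fragments, a log2 ratio of -0.11 (95% counting interval -0.25 to 0.02). INSR (chromosome 19, 7112255 to 7294034) had 2.24 FPKM in shControl, from 423 fragments, and 2.21 FPKM in shFKBP9, from 396 fragments, a log2 ratio of -0.02 (95% counting interval -0.22 to 0.18). IGF1R exceeded INSR 1.65-fold in shControl and 1.54-fold in shFKBP9.

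DDR2, a receptor that is activated by fibrillar collagen rather than by a soluble factor, lies on chromosome 1 from 162631373 to 162787400. It had 11.9 FPKM in shControl, from 2308 fragments, and 15.6 FPKM in shFKBP9, from 2878 fragments, 132% of the shControl level. The log2 ratio was 0.39 (95% counting interval 0.32 to 0.48), the highest of the 10 receptors. Genes of fibroblasts and mural cells were higher in the same library. The 7 rows of that marker list summed to 70.5 FPKM for shControl and 119 FPKM for shFKBP9, and the 4 that reached 1 FPKM, ACTA2, DCN, LUM and FAP, had log2 ratios from 0.56 to 0.95. THY1, another marker of that list, had 3 fragments in shControl and 1 in shFKBP9. More cells of a type and more RNA per cell cannot be told apart in bulk RNA, and the part of these markers in the values of DDR2 and PDGFRB, and in those of the ligands, was not tested.

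Ordered by level, EGFR and DDR2 exchanged places between the libraries. In shControl their 95% Poisson intervals overlapped, at 12.1 to 13.0 FPKM for EGFR and 11.4 to 12.4 FPKM for DDR2. Taken directly, DDR2 was 0.946 times EGFR there, with a 95% counting interval of 0.8951 to 0.9997, just under 1. In shFKBP9 the interval of DDR2 lay above that of EGFR, at 15.1 to 16.2 against 12.2 to 13.2 FPKM. INSR and ERBB2 were the other neighbours whose intervals overlapped in shControl, and in shFKBP9 no neighbours overlapped.

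**Figure D2:**
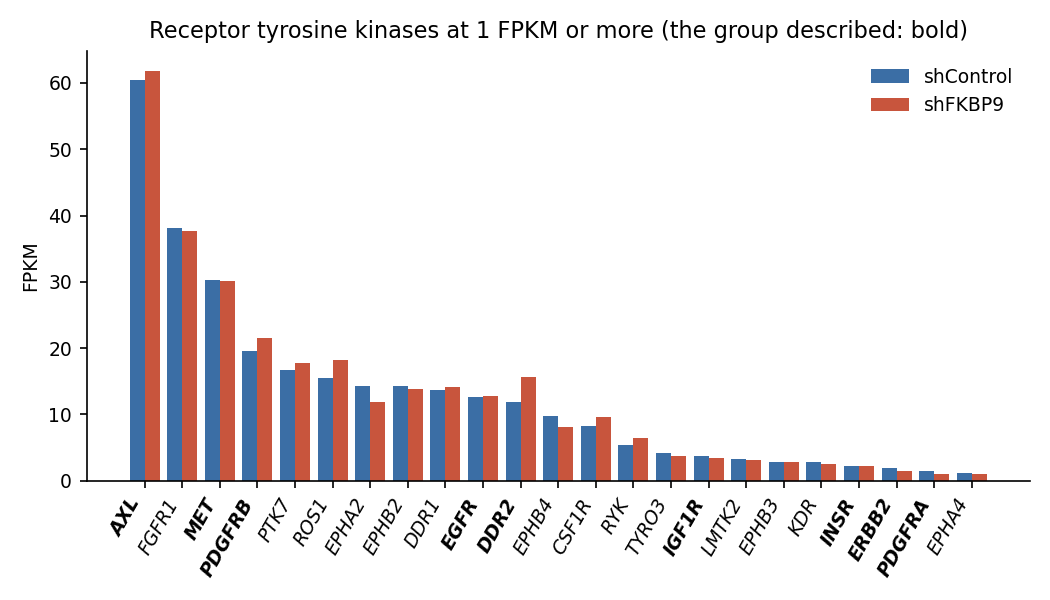
FPKM of the 23 receptor tyrosine kinases that reached 1 FPKM in either library, as bars for shControl and shFKBP9, ordered by the shControl level, with the 10 receptors described here in bold (KIT is not shown). AXL at 60.4 and 61.8 FPKM stands above FGFR1 at 38.1 and 37.6 FPKM, and the order is nearly the same in both libraries.

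None of the 10 receptors passed 2-fold in either direction. Over the 12741 genes that reached 1 FPKM in either library, 4.21% passed 2-fold, 2.02% higher and 2.19% lower in shFKBP9, so a count of 0 among the 9 receptors that reached 1 FPKM is near this background. The median log2 ratio of the 9 was -0.01, with 4 above 0 and 5 below 0, and the median of all genes that reached 1 FPKM was -0.02.

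The counting interval lay above 0 for PDGFRB and DDR2 and below 0 for PDGFRA and ERBB2, and it held 0 for AXL, MET, EGFR, IGF1R and INSR. Among all 17105 genes with at least 10 fragments, it lay off 0 for 30.7%. This share grows with depth, so the receptors were read against genes of like depth. Of the 6 receptors that had 1000 or more fragments over both libraries, 2 had an interval off 0 (PDGFRB and DDR2), against 53.3% of all genes at that depth, 24.2% above 0 and 29.1% below 0. Of the 3 with at least 100 and under 1000 fragments, 2 had an interval off 0 (PDGFRA and ERBB2), against 25.8% of all genes, 12.2% above 0 and 13.7% below 0. Intervals off 0 were thus common, and a count of 4 among 9 receptors does not set them apart.

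Against the spread of log2 ratios among genes of the same depth, DDR2 was near the upper end and PDGFRA near the lower end. The log2 ratio of DDR2 exceeded 98.0% of those of the 6393 genes with 1000 or more fragments, whose middle 95% ran from -0.35 to 0.36. PDGFRA lay at percentile 2.90 and ERBB2 at percentile 6.17 of the 5382 genes with at least 100 and under 1000 fragments, whose middle 95% ran from -0.55 to 0.54. PDGFRB lay at percentile 81.6, and AXL, MET and EGFR lay between percentiles 51.4 and 61.5. These positions describe the 2 libraries and are not a test of the conditions.

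**Figure D3:**
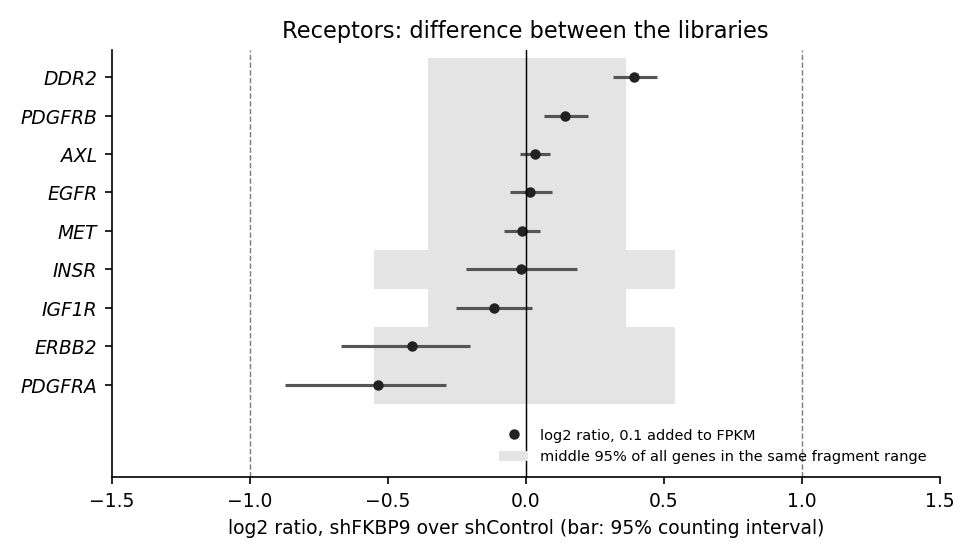
Log2 ratio (shFKBP9 over shControl, FPKM plus 0.1) for the 9 receptors with fragments, with 95% counting intervals as bars, 2-fold as dashed lines, and the middle 95% of all genes in the same fragment range as grey bands. DDR2 at 0.39 lies just past its band, and PDGFRA at -0.54 lies just inside its band.

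**Figure D4:**
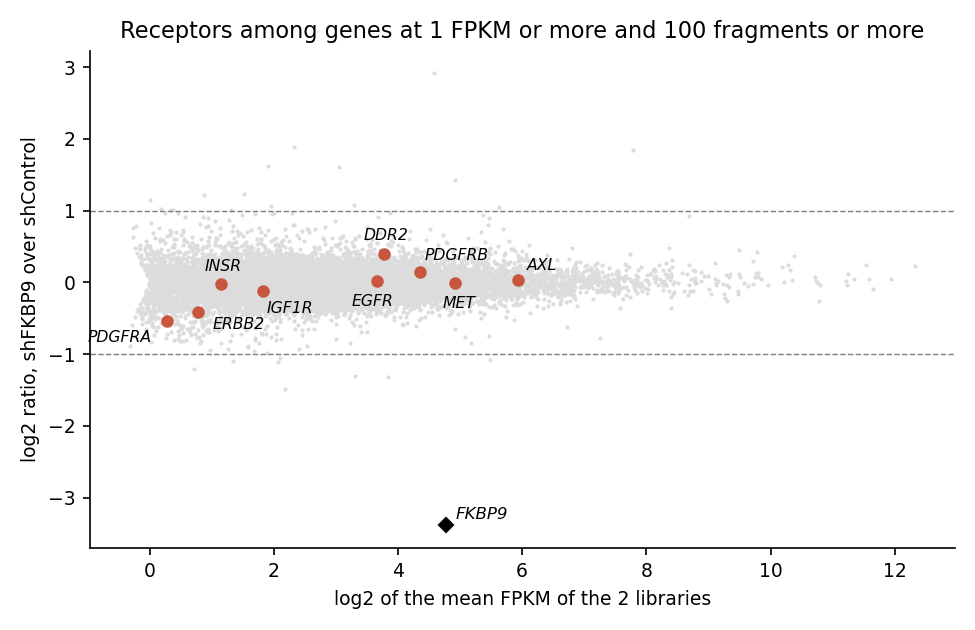
Log2 ratio (shFKBP9 over shControl) against the log2 mean FPKM of both libraries, for genes at 1 FPKM or more in either library and 100 fragments or more (grey), the 9 receptors with fragments (red) and FKBP9 (black), with 2-fold as dashed lines. The receptors lie between -0.54 and 0.39, and FKBP9 lies at -3.38.

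The genes listed as ligands spanned a wider range of log2 ratios than the receptors, from -0.42 to 0.93 among those at 1 FPKM or more. Of 28 ligand rows, 12 reached 1 FPKM in either library and none of these passed 2-fold, against the background of 4.21%. Of the 18 with at least 10 fragments, the counting interval lay above 0 for 7 and below 0 for 2, against 14% and 16.7% of all genes with at least 10 fragments. By depth, it lay above 0 for 4 and below 0 for 1 of the 6 ligands with 1000 or more fragments (24.2% and 29.1% of all genes), and above 0 for 3 and below 0 for 1 of the 7 with at least 100 and under 1000 (12.2% and 13.7%). The 4 include the collagens COL1A1, COL1A2 and COL5A1, whose 297754, 185597 and 54861 fragments give very narrow intervals. The median log2 ratio of the 12 was 0.14, with 10 above 0 and 2 below 0, where 5951 of all 12741 genes at that level were above 0 and 6789 below 0.

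GAS6 had the highest log2 ratio of the ligands with at least 10 fragments. GAS6, the vitamin K-dependent protein that binds AXL, had 1.90 FPKM in shControl, from 207 fragments, and 3.72 FPKM in shFKBP9, from 384 fragments, a log2 ratio of 0.93 (95% counting interval 0.72 to 1.22). PROS1, the related protein S, was in the ligand list but was not paired with AXL here. It had 2.06 and 3.32 FPKM, a log2 ratio of 0.66 (0.43 to 0.95). The level of AXL was 31.7 times that of GAS6 in shControl and 16.6 times in shFKBP9, while AXL itself differed by less than its counting error.

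Ligands of EGFR lay on both sides of 0. HBEGF, a membrane-anchored ligand that ADAM proteases release, had 4.01 FPKM in shControl and 6.39 FPKM in shFKBP9, a log2 ratio of 0.66 (95% counting interval 0.42 to 0.93). EREG, the most abundant EGFR ligand in both libraries, had 10.2 FPKM in shControl and 7.59 FPKM in shFKBP9, a log2 ratio of -0.42 (-0.56 to -0.28). TGFA was at 3.33 and 3.73 FPKM, with an interval that held 0. EGF and BTC stayed under 1 FPKM, AREG had 0 fragments, and EPGN had 7 fragments in shControl and 0 in shFKBP9. NRG1, a ligand of other ErbB receptors that pair with ERBB2, was at 6.29 and 6.75 FPKM (log2 ratio 0.10, -0.01 to 0.22), NRG2 and NRG4 stayed under 1 FPKM, and NRG3 had 0 fragments.

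Among the PDGFs, PDGFC, a ligand of PDGFRA, was the most abundant, at 19.4 FPKM in shControl and 23.8 FPKM in shFKBP9 (log2 ratio 0.29, 95% counting interval 0.21 to 0.38). PDGFA was at 3.53 and 3.45 FPKM (-0.03, -0.29 to 0.23). PDGFB and PDGFD, which bind PDGFRB, had 0 fragments in both libraries. Of the genes listed as PDGF ligands, those detected were thus PDGFC and PDGFA.

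HGF was at 0.428 FPKM in shControl, from 76 fragments, and 0.279 FPKM in shFKBP9, from 47 fragments (log2 ratio -0.48, 95% counting interval -1.17 to -0.07). The level of MET was 71.0 times that of HGF in shControl and 108 times in shFKBP9. INS and IGF2 had 0 fragments in both libraries, and IGF1 had 1 fragment in shControl and 0 in shFKBP9, so no ligand of IGF1R or INSR was above 3 fragments.

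The collagens that DDR2 binds were the most abundant ligands by far. COL1A1 was at 837 FPKM in shControl and 884 FPKM in shFKBP9 (log2 ratio 0.08, 95% counting interval 0.07 to 0.09), COL1A2 at 449 and 496 FPKM (0.14, 0.13 to 0.16), and COL5A1 at 133 and 145 FPKM (0.13, 0.11 to 0.15). COL3A1 was at 0.341 and 0.359 FPKM and COL2A1 had 0 fragments. The 3 abundant collagen chains were higher in shFKBP9, as DDR2 was, by smaller log2 ratios than DDR2. Among genes with 1000 or more fragments, COL1A1, COL1A2 and COL5A1 lay at percentiles 70.6, 81.8 and 79.4, and DDR2 at 98.0.

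**Figure D5:**
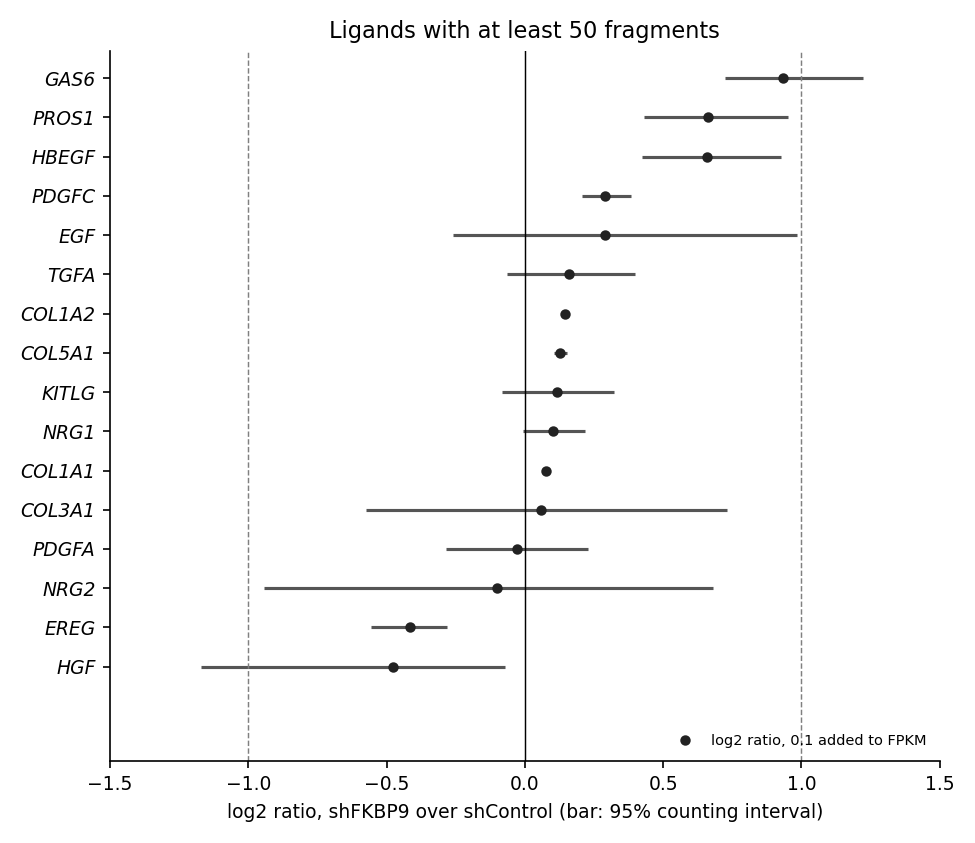
Log2 ratio (shFKBP9 over shControl, FPKM plus 0.1) for the 16 ligands with at least 50 fragments over both libraries, with 95% counting intervals as bars and 2-fold as dashed lines. GAS6 at 0.93 is the highest and HGF at -0.48 the lowest.

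The adaptors and effectors next to the receptors differed little. None of the 29 that reached 1 FPKM passed 2-fold, against 4.21% of all genes, and their median log2 ratio was 0.05. Of 30 with at least 10 fragments, the counting interval lay above 0 for 8 and below 0 for 8. The shares of all genes with at least 10 fragments were 14% and 16.7%. Of the 22 adaptors and effectors with 1000 or more fragments the interval lay off 0 for 13, against 53.3% of all genes at that depth, and of the 8 with at least 100 and under 1000 for 3, against 25.8%. SHC1 (75.2 and 78.6 FPKM), NRAS (41.4 and 43.6 FPKM), HRAS (42.0 and 39.1 FPKM), GRB2 (38.9 and 37.1 FPKM) and FYN (34.7 and 32.9 FPKM) had the highest mean levels over both libraries. The lowest log2 ratios belonged to PLCG1, the phospholipase that PDGF receptors and EGFR recruit, at -0.31 (95% counting interval -0.38 to -0.23), to IRS1, the docking protein of IGF1R and INSR, at -0.30 (-0.36 to -0.25), and to STAT5B at -0.25 (-0.45 to -0.07). The highest belonged to NCK1 at 0.36 (0.13 to 0.61) and FRS2 at 0.28 (0.07 to 0.52).

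Proteins that restrain the receptors ranged from under 1 FPKM (PTPRF and GRB14) to 70.8 FPKM. None of the 14 that reached 1 FPKM passed 2-fold, against 4.21% of all genes, and their median log2 ratio was -0.08, with 5 above 0 and 9 below 0. Of 16 with at least 10 fragments, the counting interval lay above 0 for 3 and below 0 for 4, and these 7 were among the 12 with 1000 or more fragments, a depth at which 53.3% of all genes had an interval off 0. ERRFI1, an inhibitor of EGFR, was at 70.0 and 70.8 FPKM, and LRIG1, which lowers ErbB and MET protein, was at 25.8 and 26.1 FPKM, both with a log2 ratio of 0.02. The phosphatase PTPN1 was at 36.1 and 33.5 FPKM and SOCS3 at 39.9 and 36.9 FPKM. SH2B3, an adaptor that restrains cytokine and KIT signalling, was highest at 0.35 (95% counting interval 0.26 to 0.46), followed by the phosphatase PTPN12 at 0.28 (0.16 to 0.40). The phosphatase PTPRJ was lowest at -0.27 (-0.37 to -0.18), followed by CBL, the ubiquitin ligase of EGFR, MET and PDGF receptors, at -0.23 (-0.38 to -0.10).

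Proteases that cut receptors or their ligands, counted together with protease inhibitors such as TIMP3, were the last group. None of the 7 that reached 1 FPKM passed 2-fold, against 4.21% of all genes, and their median log2 ratio was -0.03. Of 9 with at least 10 fragments, the counting interval lay above 0 for 2 and below 0 for 2, and these 4 were among the 6 with 1000 or more fragments, again against 53.3% of all genes. FURIN, which cleaves the precursors of IGF1R, INSR and MET, was at 20.9 and 20.8 FPKM (log2 ratio -0.01, 95% counting interval -0.10 to 0.09). The sheddases ADAM10 and ADAM17 were at 9.20 and 9.82 FPKM and at 4.80 and 4.70 FPKM. TIMP3, their inhibitor, was at 90.3 FPKM in shControl and 70.4 FPKM in shFKBP9 (-0.36, -0.41 to -0.31), and PLAU, a protease that can activate HGF, was at 47.4 and 65.5 FPKM (0.47, 0.39 to 0.54).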

How the data were processed

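Sequenced RNA came from stable SF-539 lines, with 1 library for shControl and 1 for shFKBP9. The authors cleaned paired-end reads, aligned them to hg38 with HISAT2 2.0.5, counted them per gene with featureCounts 1.5.0-p3 and deposited FPKM, scaled by gene length and library size. Strand settings and the handling of overlapping genes are not given in the sources used here. The gene coordinates are those of the deposited table.

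Fragments were recovered as FPKM times gene length divided by the smallest step of each library. In both libraries 100% of the values above 0 were whole multiples within 0.05 fragments. Log2 ratios used FPKM with 0.1 added. Calls past 2-fold needed 1 FPKM in either library. The exact Clopper-Pearson and Poisson intervals at 95% cover counting error only, and a count of 0 is given the limit of 3 fragments. With 1 library per condition no test was run, so a fold minimum was used instead of the edgeR test named in the study's methods. Recovery, intervals and the 2-fold call were tested on simulated data.

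The receptors and gene lists were written from general knowledge, with earlier results of these data known. Named are the receptors, FKBP9, genes overlapping or next to a receptor, ligands with at least 10 fragments, defining markers, and in each list the 5 highest levels, the 3 largest and 3 smallest log2 ratios at 50 fragments or more, and genes past 2-fold, except a result that is not reported here. DCN and ACTA2, the ligands with fewer fragments and the further markers were named beside them to account for whole lists. IGF2 and RGS5 have 2 rows each. Promoters came from RefSeq (10 of 10 receptors matched) and transcripts from GENCODE release 44. Computation used Python 3.11.15 with scipy 1.17.1, numpy 2.4.6 and pandas 2.3.3, and plots matplotlib 3.10.9.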

Additional observations from a re-analysis of the deposited data

How the results depend on the processing

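The count of 0 receptors past 2-fold held with 1 or 0.01 added to FPKM, with the median ratio of expressed genes set to 1, with TPM, with no minimum, with at least 1 FPKM in both libraries, with at least 50 fragments and at 1.5-fold. The log2 ratio of DDR2 ran from 0.37 to 0.41 over the 4 additions and scalings, that of PDGFRA from -0.59 (with TPM, at the 1.5-fold line) to -0.32 and that of ERBB2 from -0.45 to -0.27. EGFR ran from -0.00 to 0.03 and MET from -0.03 to 0.00, so neither has a stable sign. FKBP9 moved to -3.16 with 1 added to FPKM, since that addition raises low values most. Without a minimum, 1 listed ligand, EPGN, passed 2-fold, and at 1.5-fold 3 listed ligands, GAS6, HBEGF and PROS1, did. Counted in fragments without length scaling, the 10 receptors held 42.2% of the total over all receptor tyrosine kinases in shControl and 43.2% in shFKBP9. The other 97 values under alternatives stayed within their limits. No paired analysis was possible because there is 1 library per condition, and for the same reason no library could be left out. Among the receptors with fragments, depth limits PDGFRA, ERBB2 and INSR most, each with under 1000 fragments, and KIT had 0 fragments.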

Other observations

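The receptor tyrosine kinases outside the group of 10 included several at high levels. FGFR1 was the second of all 58 by FPKM, at 38.1 FPKM in shControl and 37.6 FPKM in shFKBP9. ROS1, best known from gene fusions, was at 15.5 and 18.2 FPKM (log2 ratio 0.23, 95% counting interval 0.15 to 0.32). CSF1R, the receptor of macrophages and microglia, was at 8.30 and 9.67 FPKM (0.22, 0.08 to 0.36). Of markers of blood cells, PTPRC and AIF1 had 0 fragments in both libraries, and CD14 had 13 (shControl) and 24 (shFKBP9), a log2 ratio of 0.81 (95% counting interval -0.07 to 2.06). Their part in the value of CSF1R was not tested. CSF1R is the gene next to PDGFRB, and the deposited coordinates place their ends 465 bases apart. None of the 14 receptors outside the group that reached 1 FPKM passed 2-fold, near the background of 4.21% of all genes, and their median log2 ratio was -0.04. The 5 Eph receptors that reached 1 FPKM had log2 ratios from -0.28 to -0.04, where 6789 of all 12741 genes at that level were below 0. Of the 9 Eph receptors with at least 10 fragments, the interval lay below 0 for EPHA2 and EPHB4 and above 0 for EPHA5 (0.51, 0.10 to 1.23, from 46 and 69 fragments), against 16.7% and 14% of all genes.

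Genes next to the receptors were also read. SEC61G, a subunit of the ER translocon and the nearest protein-coding gene to the left of EGFR, was at 119 FPKM in shControl and 139 FPKM in shFKBP9 (log2 ratio 0.23, 95% counting interval 0.17 to 0.30), and LANCL2 to the right of EGFR was at 4.80 and 4.37 FPKM (-0.13, -0.33 to 0.06). CAV1, to the left of MET, was at 288 and 350 FPKM (0.28, 0.25 to 0.31), and CAPZA2 to its right was at 11.5 and 13.0 FPKM (0.18, 0.08 to 0.27). HNRNPUL1, 730 bases to the right of AXL, was at 66.4 and 59.4 FPKM (-0.16, -0.21 to -0.11). KDR, to the right of KIT, was at 2.83 and 2.45 FPKM (-0.20, -0.44 to 0.03), so that PDGFRA, KIT and KDR, neighbours on chromosome 4, stood at 1.46, 0 and 2.83 FPKM in shControl. The remaining neighbours, other than receptors of the group and CSF1R, described above, had under 10 fragments or an interval that held 0.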
